A study of Mus musculus with 50 samples.

Results

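NFIA occupancy was compared between astrocytes and oligodendrocytes of the mouse primary visual cortex (V1). The comparison used 6 CUT&RUN libraries of the 50 samples in the series, 3 for each cell type, all taken at postnatal day 14 from normally reared (NR) mice. The samples were chosen by antibody, cell type and rearing as given in the labels. In CUT&RUN an antibody tethers a nuclease to chromatin, and the short DNA fragments it releases mark where the protein sat. Each library was made from 175000 sorted nuclei, and each replicate pooled the V1 of 3 to 5 mice. Astrocyte nuclei came from animals that the labels give as WT, whereas the study's methods place astrocyte NFIA samples in GR fl/fl mice. They had received at birth an AAV2/5 virus in which the GfaABC1D promoter, a compact form of the Gfap promoter, drives an inactive Cre (ΔCre) together with EGFP-KASH, a nuclear envelope tag, and which carries the 4x6T element. Oligodendrocyte nuclei came from Olig2-Cre;Sun1-GFP fl/fl mice by the labels, where the methods give a single floxed Sun1-GFP allele, and in these mice every cell with a history of Olig2 expression keeps a fluorescent nuclear envelope. That tag therefore covers progenitors, immature and myelinating cells alike, and also any cell outside the lineage with such a history. Cell type, genotype and labelling method cannot be told apart here. Peak lists carry no expression values, so the purity of the sorts was not measured by them.

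NFIA is a member of the nuclear factor I family, whose proteins bind DNA as dimers at a palindrome of TTGGC and GCCAA arms separated by a short spacer, and more weakly at a single arm. In the embryo NFIA starts gliogenesis, and with SOX9 it switches on astrocyte genes such as Apcdd1, Mmd2 and Zcchc24. In the oligodendrocyte lineage NFIA is present in progenitors, is reported to hold back myelin genes, and declines as the cells differentiate. The other family members NFIB, NFIC and NFIX share the same DNA sequence preference.

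NFIA peaks were far more numerous in astrocytes. The astrocyte libraries gave 27143, 25441 and 22373 peaks for replicates 1 to 3, and the oligodendrocyte libraries gave 201, 722 and 111. The groups did not overlap, and the smallest astrocyte list was 31-fold longer than the largest oligodendrocyte list. On the log2 scale the mean difference was 6.62, a ratio of geometric means of 98.6 (p = 0.1, adjusted p = 0.133 over 4 tests of list properties, two-sided exact permutation test, the smallest p that 3 against 3 libraries allow being 0.1). GR, the glucocorticoid receptor, showed a gap of the same direction between these cell types in NR mice, with 14012, 2262 and 21539 peaks in astrocytes and 110, 81 and 4 in oligodendrocytes. NFIA lists of inhibitory neurons (InN; 1907, 178 and 1288 peaks) and excitatory neurons (ExN; 4173, 246 and 1) overlapped the oligodendrocyte range.

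**Figure D1:**
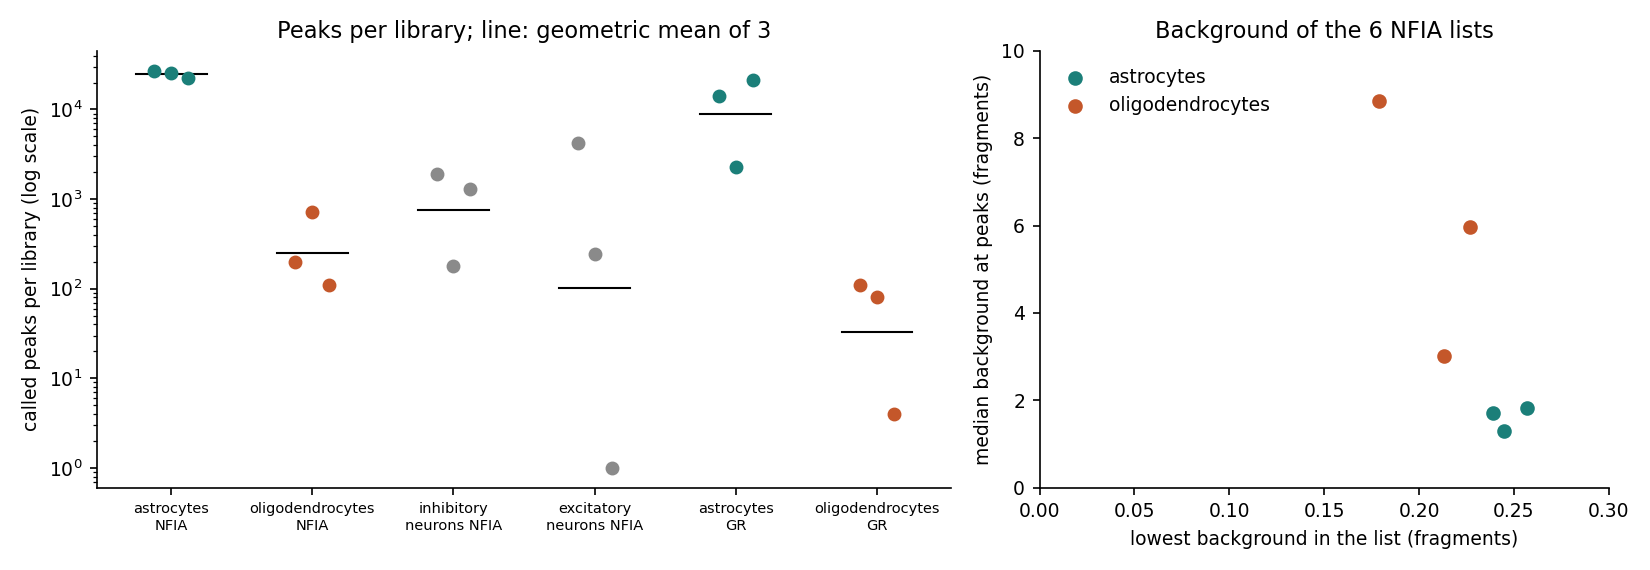
Left, the length of each peak list (log axis) for NFIA in 4 cell types and GR in 2, with 1 point per library and a line at the geometric mean; the astrocyte NFIA lists sit between 22373 and 27143 and the oligodendrocyte NFIA lists between 111 and 722. Right, for the 6 NFIA lists, the lowest background in a list (fragments, an index of depth) against the median background at its peaks; the lowest background is 0.239 to 0.257 in astrocytes and 0.179 to 0.227 in oligodendrocytes, and oligodendrocyte peaks sit on 3.01 to 8.85 background fragments where astrocyte peaks sit on 1.31 to 1.82.

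The fold enrichment and p-value of each peak together fix the whole number of fragments at its summit and the expected local background, and a solution was found for 100% of peaks. The lowest background in a list scales with sequencing depth. It was 0.245, 0.239 and 0.257 fragments in astrocyte replicates 1 to 3, and 0.227, 0.179 and 0.213 in the oligodendrocyte libraries, lower in every oligodendrocyte library (exact permutation p = 0.1). In the third oligodendrocyte library only 1 peak lay at that value, which is then an upper limit. Median fragments at the summit were 18 in each astrocyte library and 33, 41 and 27 in the oligodendrocyte libraries. The median local background was 1.31, 1.71 and 1.82 fragments in astrocytes and 5.97, 8.85 and 3.01 in oligodendrocytes. Oligodendrocyte peaks thus had more fragments but lower enrichment, with a median fold of 4.79, 4.18 and 5.99 against 7.11, 7.01 and 6.65. Peak names in all 3 oligodendrocyte lists carry the tag of a single IgG control, which the oligodendrocyte GR lists share, and names in the astrocyte lists carry none. The part of the control in the gap was not tested. At 1 common p threshold, an alternative added after the lists were seen, there were 24056, 22065 and 19297 astrocyte peaks and 191, 665 and 111 oligodendrocyte peaks.

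Merging peaks called in at least 2 of 3 libraries gave 23495 astrocyte sites and 192 oligodendrocyte sites. Of the astrocyte sites 17266, or 73.5%, were called in all 3 libraries, and of the oligodendrocyte sites 63, or 32.8%. Of the 192 oligodendrocyte sites 162, 190 and 95 had a peak in replicates 1, 2 and 3, so the third library was absent from most sites not called in all 3. The second and longest list had 26.3% of its peaks in a site, against 80.6% and 85.6% for replicates 1 and 3. Without the second library 65 oligodendrocyte sites were left, without the first 93 and without the third 160. Each of these counts required a call in both remaining libraries, a stricter rule than 2 of 3.

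Almost all oligodendrocyte sites lay within the astrocyte set. Of the 192 sites 177 overlapped an astrocyte site (92.2%, Wilson 95% interval 87.5 to 95.2%), and 173 had a peak in all 3 astrocyte libraries. The individual lists gave the same picture, with 185 of 201, 664 of 722 and 97 of 111 oligodendrocyte peaks inside an astrocyte site. Read the other way, 177 of 23495 astrocyte sites held an oligodendrocyte site, which is 0.753%, and 22791 (97%) had no oligodendrocyte peak at all. The intervals cover counting error only, and sites of 1 genome are not replicates, so these shares were not tested.

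Sequences under some of the strongest sites of each class are given below. Each line gives the plus strand within 50 bases of a summit (GRCm38, the mm10 assembly), and capitals mark the arms of a palindrome TGGC, 5 bases, GCCA, or the single-arm word TTGGCA or its complement. The windows called in all 3 astrocyte and no oligodendrocyte libraries are Sohlh1 (chr2:25852772-25852872, intergenic), Nr2c2ap (chr8:70128578-70128678, intergenic) and Tmod2 (chr9:75599580-75599680, at the start of a shorter transcript). The windows called in all 6 libraries are Prkag2 (chr5:25086404-25086504, intron), Thy1 (chr9:43920145-43920245, intergenic), Sh3gl2 (chr4:85250369-85250469, intron) and Zbtb16 (chr9:48740325-48740425, intron). The windows with no astrocyte peak are Sema3d (chr5:12549440-12549540, intron), Kdm1a (chr4:136601541-136601641, intron), Gm8797 (chr3:5754897-5754997, intergenic) and Zfhx4 (chr3:4796943-4797043, intergenic). They are named by the nearest protein-coding gene and are shown because they rank among the first in their class by enrichment.
Sohlh1: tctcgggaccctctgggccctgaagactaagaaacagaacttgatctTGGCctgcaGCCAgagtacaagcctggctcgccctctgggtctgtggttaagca
Nr2c2ap: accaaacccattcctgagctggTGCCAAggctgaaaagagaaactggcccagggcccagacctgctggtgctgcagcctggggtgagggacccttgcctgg
Tmod2: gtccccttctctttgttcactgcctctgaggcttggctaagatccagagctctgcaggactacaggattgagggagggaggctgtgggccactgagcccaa
Prkag2: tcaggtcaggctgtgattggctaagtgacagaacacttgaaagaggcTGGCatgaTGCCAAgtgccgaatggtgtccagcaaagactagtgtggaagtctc
Thy1: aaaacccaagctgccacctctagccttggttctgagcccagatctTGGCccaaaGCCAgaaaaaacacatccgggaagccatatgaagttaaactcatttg
Sh3gl2: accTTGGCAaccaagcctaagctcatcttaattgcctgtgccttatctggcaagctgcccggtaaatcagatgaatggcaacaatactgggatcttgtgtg
Zbtb16: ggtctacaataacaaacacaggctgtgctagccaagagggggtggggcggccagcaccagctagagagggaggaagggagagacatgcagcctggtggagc
Sema3d: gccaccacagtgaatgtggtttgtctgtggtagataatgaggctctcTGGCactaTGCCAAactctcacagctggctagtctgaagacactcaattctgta
Kdm1a: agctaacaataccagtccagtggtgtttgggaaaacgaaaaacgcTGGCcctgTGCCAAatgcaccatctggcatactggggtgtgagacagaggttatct
Gm8797: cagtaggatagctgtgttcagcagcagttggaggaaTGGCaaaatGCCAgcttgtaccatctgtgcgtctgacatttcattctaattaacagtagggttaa
Zfhx4: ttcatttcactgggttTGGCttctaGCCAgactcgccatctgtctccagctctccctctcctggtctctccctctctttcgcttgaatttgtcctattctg
All 4 windows without an astrocyte peak held the palindrome, as did 2 of the 4 called in all libraries and 1 of the 3 shown that were called in astrocytes only. The palindrome was chosen after sequences of these named sites were seen, so the counts describe the windows and cannot serve as a test.

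NFI words were counted within 50 bp of every summit, beside windows of the same length 1 kb away. The full site, TTGGC and GCCAA arms at a spacing of 5 bases, was found at 5.97%, 2.35% and 6.31% of oligodendrocyte summits in replicates 1 to 3, and at 0% of their flanks. At astrocyte summits it was found at 0.346%, 0.326% and 0.308%, with flanks of at most 0.00786%. The groups did not overlap, and the astrocyte share was lower by 4.55 percentage points (p = 0.1, adjusted p = 0.2 over 10 words, exact permutation test over libraries). The single-arm word TTGGCA occurred at 36.3%, 21.9% and 45.9% of oligodendrocyte summits and at 18.5%, 16.1% and 15.9% of astrocyte summits, with flanks of 5.06 to 8.11% and 5.1 to 5.28%. That difference was -17.9 percentage points for astrocytes minus oligodendrocytes, without overlap (p = 0.1, adjusted p = 0.2, exact permutation test).

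The shorter palindrome of TGGC and GCCA arms was chosen after the sequences above were seen, and so is given as a description with no test. It stood at 91 of 201 summits (45.3%), 174 of 722 (24.1%) and 60 of 111 (54.1%) in oligodendrocytes, and at 4.47%, 4.41% and 4.43% in astrocytes. Flanks held it in 0.45 to 0.746% and 0.215 to 0.242% of windows. A spacing of 5 bases stood out from every other spacing between 0 and 10. In oligodendrocytes the next most frequent spacing, 1 base, reached 3.98%, 1.8% and 4.5%, and in astrocytes the same spacing reached 1.26%, 1.19% and 1.14%. The palindrome lay at the summit itself, with a median distance of 10 bp in each oligodendrocyte library and 11 bp in each astrocyte library. In the oligodendrocyte GR lists with at least 50 peaks it was found at 0 of 110 and 1 of 81 summits, and in the astrocyte GR lists at 0.84 to 1.24%.

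**Figure D2:**
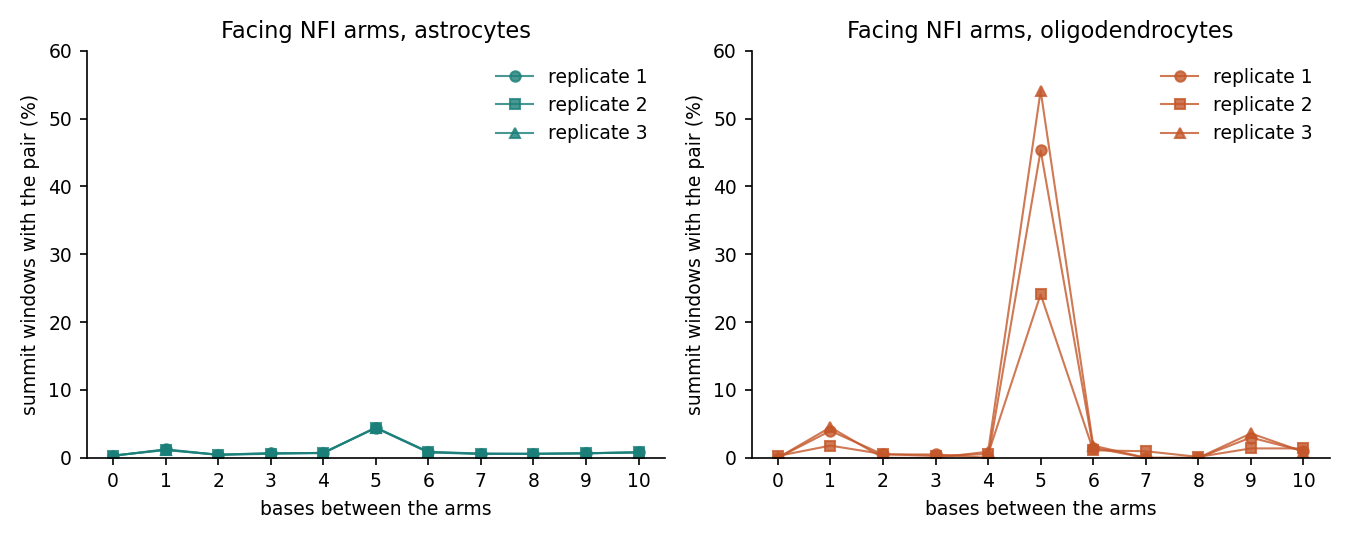
Share of summit windows (%) holding a facing pair of NFI arms, by the number of bases between the arms, for the 3 astrocyte (left) and 3 oligodendrocyte (right) libraries. All 6 curves peak at 5 bases, at 4.41 to 4.47% in astrocytes and 24.1 to 54.1% in oligodendrocytes.

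List length moves with these shares. Among the 111 peaks of highest fold in every library, the size of the smallest list, the palindrome was at 21.6%, 36% and 45.9% of astrocyte summits and 56.8%, 58.6% and 54.1% of oligodendrocyte summits. The single-arm word was at 33.3%, 35.1% and 41.4% against 43.2%, 45.9% and 45.9%, which reduced the difference to -8.41 percentage points. The full site kept its gap, 1.8%, 2.7% and 3.6% against 9.01%, 7.21% and 6.31%. In none of these 3 comparisons did the groups overlap, and the exact permutation p of both the full site and the single-arm word was 0.1.

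Among the other 8 words the ETS word CCGGAA, found at many housekeeping promoters, was more frequent in astrocytes (6.18 to 7.16% of summits) than in oligodendrocytes (0 to 4.02%). So were the CTCF core (1.24 to 1.48% against 0% in all 3 libraries) and the homeobox word TAATTA (2.07 to 2.16% against 1.49 to 1.8%). For the CTCF core, 0 of 201, 722 and 111 oligodendrocyte summits have Wilson upper limits of 1.88%, 0.529% and 3.35%. The limits of replicates 1 and 3 lie above the astrocyte shares. None of the 3 words overlapped between groups, each with p = 0.1 and adjusted p = 0.2 by the exact permutation test. Among the 111 top peaks of each library all 3 did overlap, with ETS at 2.7%, 4.5% and 0% in astrocytes and 0%, 0.901% and 0% in oligodendrocytes. Over the full lists, ranges overlapped for the AP-1 word, the SOX word AACAAT, the E-box CAGCTG, the GC-box GGGCGG and the glucocorticoid response element. In all, 10 words were tested, and 5 of them had groups that did not overlap.

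Over the full lists the groups overlapped in position relative to genes. Promoter peaks, with a summit within 500 bp of a transcript start, made up 36%, 39.8% and 41.5% of the astrocyte lists. In oligodendrocytes they made up 29.4%, 52.2% and 11.7%, a spread that encloses the astrocyte values. The difference of 8.02 percentage points was within that spread (p = 0.7, exact permutation test) and changed sign to -1.67 without the third oligodendrocyte library. Without the second it was 18.6 (exact p = 0.1, the smallest possible for 3 against 2). Among the 111 peaks of highest fold the promoter share was 17.1%, 18% and 13.5% in astrocytes and 10.8%, 8.11% and 11.7% in oligodendrocytes. There the groups did not overlap, with a difference of 6.01 percentage points (exact permutation p = 0.1).

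Promoter and distal peaks of oligodendrocytes of replicates 1 and 2 differed in what else lay there. In the second and longest library, 377 promoter peaks had a median background of 18.1 fragments, held the palindrome in 6.9% of windows, and in 69.2% also had an NFIA peak in excitatory neurons. Its 345 distal peaks had a median background of 3.1 fragments, held the palindrome in 42.9%, and in 15.1% had an excitatory neuron NFIA peak. A peak in any excitatory neuron library counted, and those lists held 4173, 246 and 1 peaks. In the astrocyte lists such a peak lay at 17.1 to 18% of promoter and 2.5 to 2.7% of distal peaks. Peaks of GR in oligodendrocytes overlapped 21.5% of the promoter peaks of the second oligodendrocyte library and 0.87% of its distal ones. In the first library 32.2% of 59 promoter peaks and 0 of 142 distal peaks lay at an oligodendrocyte GR peak (Wilson upper limit 2.63%). The third library did not divide as clearly, since its 13 promoter peaks held the palindrome in 38.5% and the single-arm word in 53.8%, against 56.1% and 44.9% of its 98 distal peaks, and 1 promoter peak lay at an oligodendrocyte GR peak. Over the 192 sites, 16 of the 53 promoter sites and 1 of the 139 distal sites had an oligodendrocyte GR peak, and 76 of the distal sites (54.7%, Wilson 46.4 to 62.7%) held the palindrome. Among all 13996 distal astrocyte sites the palindrome share was 6.87%. Leaving out every oligodendrocyte NFIA peak that overlapped an oligodendrocyte GR peak left 175 sites, an alternative also added after the data were seen. A further 527 astrocyte sites had a peak in 1 oligodendrocyte library only. Of those, 60.2% were promoters, 15% held the palindrome and 50.5% had an ExN NFIA peak.

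Most astrocyte sites found in oligodendrocytes were among the most enriched. In the top decile by fold enrichment 114 of 2350 astrocyte sites held an oligodendrocyte site (4.85%, Wilson 4.05 to 5.8%), and in the top 1 percent 53 of 235 did (22.6%). Decile 9 held 16 (0.681%), and deciles 2 to 8 held 3 to 6 such sites each, or 0.128 to 0.255%. The lowest decile held 18 (0.766%), all 18 in promoters and 12 of them with an oligodendrocyte GR peak. Astrocyte sites with the palindrome were shared more often than those without, 75 of 1097 (6.84%, Wilson 5.49 to 8.49%) against 102 of 22398 (0.455%, 0.375 to 0.552%). Promoter sites (9.63% against 0.416%) and distal sites (6.44% against 0.483%) gave similar values, and within the top decile the shares were 16.8% and 2.96%. These shares are descriptions, since sites are not replicates.

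**Figure D3:**
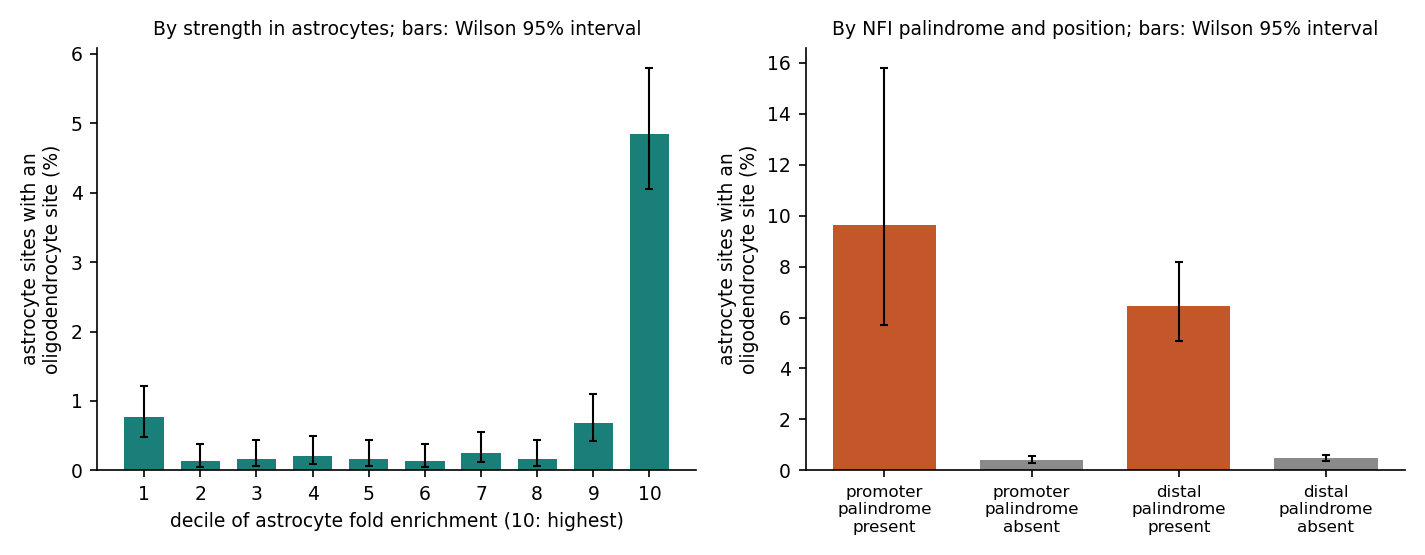
Percent of astrocyte sites that overlap an oligodendrocyte site, by decile of fold enrichment in astrocytes (left) and by presence of the NFI palindrome in promoter and distal sites (right); error bars are Wilson 95% intervals. The top decile reaches 4.85%, deciles 2 to 8 stay at or under 0.255%, and sites with the palindrome reach 9.63% in promoters and 6.44% elsewhere.

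Signal was also lower in oligodendrocytes where both cell types had a site. At the 58 sites called in all 6 libraries, median fragments at the summit were 104, 102 and 94.5 in astrocytes and 35, 37.5 and 37.5 in oligodendrocytes, on a median background of 2.57 to 2.73 and 4.87 to 5.43 fragments. The oligodendrocyte sites with a peak in at least 1 astrocyte library numbered 180. Values were scaled to the lowest background of each library, and only libraries with a peak at the site gave a value. Among the values present, every astrocyte value exceeded every oligodendrocyte value at 118 of the 180 sites, and the reverse held at 19. The median oligodendrocyte over astrocyte ratio was 0.547. These sites were selected on being called in both, so the ratio was not tested.

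Among the 58 sites, the one with the highest enrichment rank lay in an intron of Prkag2, a regulatory subunit of AMP-activated kinase, 14.2 kb from its start. It had 110, 107 and 125 fragments in astrocytes and 40, 43 and 30 in oligodendrocytes, so that all astrocyte libraries were higher. The second, an intergenic site upstream of Thy1, a surface glycoprotein of neurons, had 130, 167 and 136 against 72, 61 and 42. Sh3gl2, which encodes the endocytic protein endophilin A1, had an intronic site with 70, 54 and 43 against 26, 23 and 20. An intronic site of Zbtb16, a zinc finger repressor, had 180, 161 and 147 against 59, 78 and 45. In these fragments, which are not scaled to the lowest background, the groups did not overlap at any of these sites, astrocytes being higher. At Slc12a8, by contrast, a site 52.2 kb upstream of the gene, in an intron of Zfp148, had 42, 34 and 32 fragments in astrocytes and 26, 36 and 40 in oligodendrocytes, which overlap. The remaining named sites of this class lay near Qrfp, Asb17, Gm11146, Tmcc3, Olfr412, Irf2bpl and Abat, with 53 to 282 fragments in astrocytes and 17 to 96 in oligodendrocytes. Abat, the enzyme that degrades GABA, had 105, 103 and 95 against 22, 26 and 22. Of the 12 named sites 7 held the palindrome, a word chosen after sequences of named sites were seen. Among the 63 oligodendrocyte sites called in all 3 libraries 38 held it (60.3%).

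**Figure D4:**
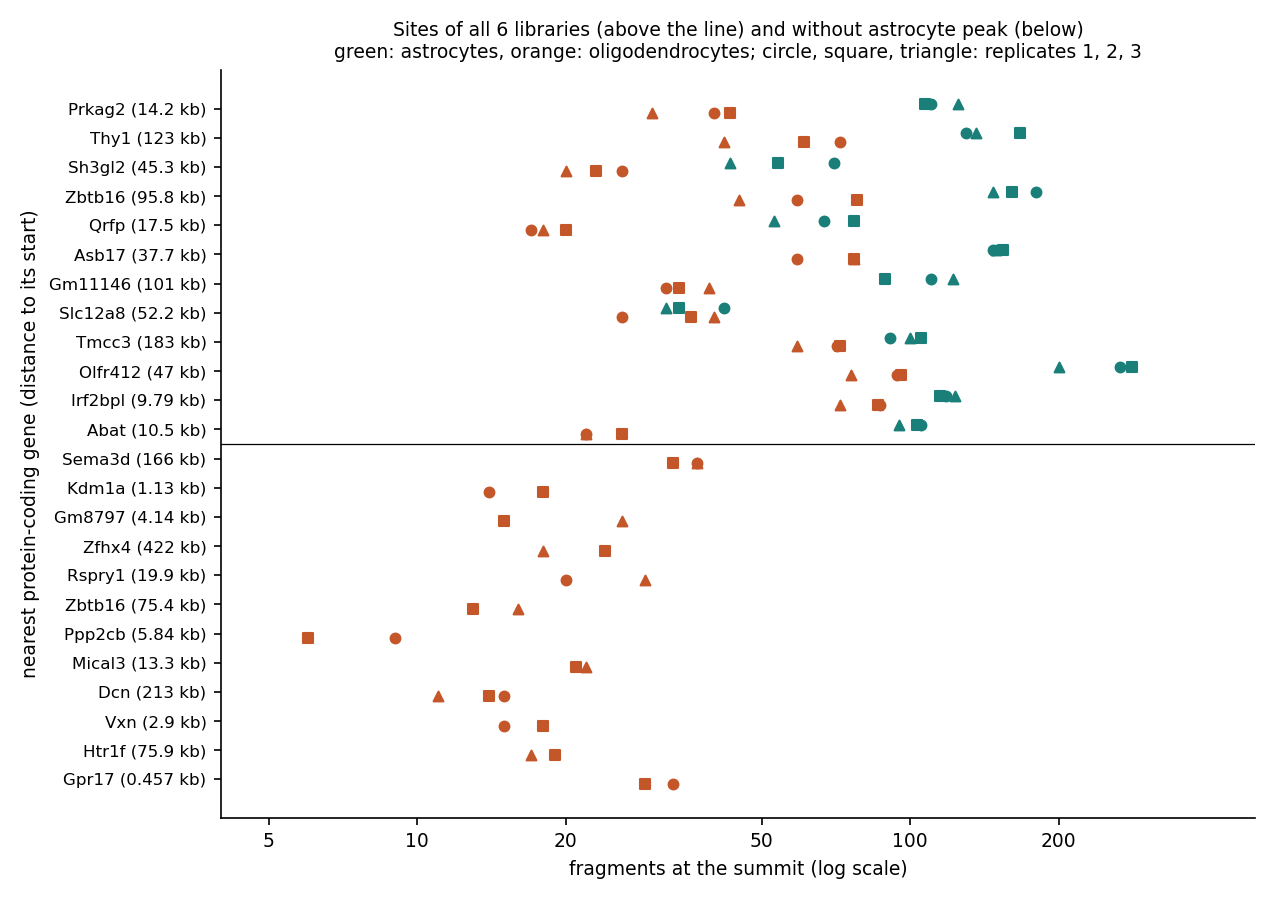
Fragments at the summit (log axis) in each library for the 12 highest-ranked sites called in all 6 libraries (above the line) and the 12 oligodendrocyte sites without an astrocyte peak (below), labelled by the nearest protein-coding gene and the distance to its start. Above the line astrocyte points lie to the right of oligodendrocyte points except at Slc12a8. Below it the oligodendrocyte points lie between 6 and 37 fragments. Fragments are not scaled to the lowest background of each library.

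Of the 192 oligodendrocyte sites 12 had no peak in any astrocyte library, and 9 of these held the palindrome, against 92 of all 192 (47.9%). The palindrome was chosen after sequences of named sites were seen, so this count is a description only. The site within Sema3d, which encodes a secreted guidance protein, was called in all 3 libraries with 37, 33 and 37 fragments on a background of 2.17, 1.77 and 2.01. Sema3d was also the only protein-coding gene with more peaks within 50 kb of its body in every oligodendrocyte library than in any astrocyte library, 1 of 21911 genes or 0.00456%. The other site of all 3 libraries lay 213 kb upstream of Dcn, the gene of the matrix proteoglycan decorin, with 15, 14 and 11 fragments. An intronic site 1.13 kb into Kdm1a, the histone demethylase LSD1, had 14 and 18 fragments in replicates 1 and 2. A second intronic site of Zbtb16, 75.4 kb into the gene where the shared one lay at 95.8 kb, carried the full NFI site and had 13 and 16 fragments in replicates 2 and 3. The promoter of Gpr17, a receptor that marks oligodendrocytes in transition from progenitor to myelinating cell, had 33 and 29 fragments in replicates 1 and 2 on a background of 8.97 and 9.29, and held neither NFI word. The others were nearest to Gm8797, Zfhx4, Rspry1, Ppp2cb, Mical3, Vxn and Htr1f, with 6 to 29 fragments. None of the 12 had a peak in the GR lists of either cell type. Over all 192 oligodendrocyte sites, 69.3% had an astrocyte GR peak and 8.85% an oligodendrocyte GR peak. Such sites numbered 7, 3 and 6 without oligodendrocyte replicates 1, 2 and 3, with a call in both remaining libraries required. They numbered 2 when all 3 libraries were required.

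The sites of highest rank called in all 3 astrocyte and no oligodendrocyte libraries, a class of 16591, had 52 to 224 fragments in astrocytes. A site 5.57 kb upstream of Sohlh1 had 109, 140 and 102 fragments on a background of 0.997, 0.973 and 1.05, and held the palindrome. The site near Nr2c2ap had 140, 104 and 72 fragments on 0.623, 0.608 and 0.655. A site with the palindrome in an intron of Zbtb20, a transcription factor of astrocyte development, and 160 kb from the start of Tigit, the nearest, had 88, 80 and 68 fragments on 0.623, 0.608 and 0.911. The intronic site of Slc1a3, the glutamate transporter GLAST, lay 4.42 kb into the gene with 65, 55 and 52 fragments on 0.349, 0.341 and 0.367. The other named sites of the class were near Tmod2, Arid1a, Rfpl4b, 4930432M17Rik, Spaca6, Prss42 and Smim15. Each of these named sites had GR peaks in 2 or 3 astrocyte libraries, and 50.4% of all astrocyte sites overlapped a GR site called in at least 2 astrocyte libraries.

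Sites within 50 kb of a gene body were counted for lists of genes, beside all 21911 protein-coding genes, of which 69.7% had an astrocyte site and 1.91% an oligodendrocyte site. More peaks in every astrocyte library than in any oligodendrocyte library were counted at 64.8% of all genes. Of 30 astrocyte identity genes all 30 had an astrocyte site, 30 had more peaks in every astrocyte library, and 1 had an oligodendrocyte site. All 20 housekeeping genes also had an astrocyte site and none an oligodendrocyte site, the same full count as in the astrocyte list, with Rplp0, Actb, Rpl13a and Gusb ranked highest. Some genes stand in 2 lists, and Aldh1l1, Slc1a2, Aqp4, Gfap, Sox10, Pdgfra, Ermn, Tspan2, Ugt8a, Aspa, Fa2h and Mbp are named below as familiar markers outside the ranking, chosen after their values were seen.

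Among the astrocyte genes Slc1a3 ranked highest and had 9, 10 and 10 peaks in astrocytes and 0 in each oligodendrocyte library. Aldh1l1, a folate enzyme and general astrocyte marker, had 24, 22 and 20 peaks, and Slc1a2, the glutamate transporter GLT-1, had 13, 24 and 14, with none in oligodendrocytes. Aqp4, the endfoot water channel, had 7, 6 and 8, and Gfap, the astrocyte intermediate filament, had 4, 7 and 8. Fgfr3, a growth factor receptor, and Atp1b2, a sodium pump subunit, followed in rank, each with 13 or more peaks in every astrocyte library and at most 1 in any oligodendrocyte library. The astrocyte gene with an oligodendrocyte site was Kcnj10, the potassium channel Kir4.1. That site lay 45.2 kb upstream and had 192, 162 and 128 fragments in astrocytes and 41 and 42 in oligodendrocyte replicates 1 and 2.

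Genes of the gliogenic programme all carried astrocyte sites. Of 15 such genes 15 had an astrocyte site and 2 an oligodendrocyte site. The promoter of Fabp7, a fatty acid binding protein of radial glia and young astrocytes, was called in all 6 libraries with 95, 70 and 58 fragments in astrocytes and 36, 29 and 25 in oligodendrocytes. Mmd2, one of the joint NFIA and SOX9 targets, had an intronic site with 90, 97 and 85 against 33 and 32 in replicates 1 and 2. At both genes every astrocyte value was the higher. Stat3, which relays gliogenic cytokines, had 6 to 8 peaks in astrocytes and none in oligodendrocytes, and Zcchc24 had 13 to 15 and at most 1.

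The nuclear factor I genes themselves carried many astrocyte sites, 26 at Nfia, 19 at Nfib, 18 at Nfic and 27 at Nfix, on gene bodies of 346, 416, 59.5 and 100 kb. Oligodendrocyte peaks were absent at Nfia, Nfib and Nfix. The one oligodendrocyte site, in an intron of Nfic 20 kb from its start, held the palindrome and had 247, 268 and 226 fragments in astrocytes and 70 and 67 in oligodendrocyte replicates 1 and 2.

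Of 20 glial fate transcription factors 17 had an astrocyte site, and Sox8, a partner of SOX9 and SOX10, was the one with an oligodendrocyte site (135, 99 and 91 fragments against 22 and 20). Zbtb20, Sox2 and Hes6 ranked highest in astrocytes, with 19 to 22, 8 to 12 and 6 to 8 peaks. Of 16 genes of oligodendrocyte progenitors 12 had an astrocyte site, a share of 75% near the 69.7% of all genes. Gpr17 was the one with an oligodendrocyte site. Olig1 and Olig2, the basic helix-loop-helix factors of the lineage, had 9 to 11 and 7 to 8 astrocyte peaks and no oligodendrocyte peak, and Sox10 had 1 to 3 and none. Tnr, a matrix glycoprotein, had 11 to 14 astrocyte peaks and C1ql1, a secreted synaptic protein, 2 to 6, neither with an oligodendrocyte peak. The site that gave C1ql1 its rank lay 48.1 kb from its start and was also the highest-ranked site of Gfap, 2.34 kb from the Gfap start. Pdgfra, the receptor that defines progenitors, had no peak in any of the 6 libraries.

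Of 20 genes of myelin and mature oligodendrocytes 12 had an astrocyte site (60%) and none an oligodendrocyte site, against 1.91% of all genes. Ermn, Tspan2, Ugt8a and Aspa had no peak in any of the 6 libraries, and Mbp had 2, 0 and 1 astrocyte peaks. Cnp, a myelin phosphodiesterase, had 11, 10 and 9 astrocyte peaks and 1 peak in the first oligodendrocyte library. Myrf, the factor that drives myelin genes, had 10, 8 and 9, and Qdpr, a pterin reductase, had 3 in each, both without an oligodendrocyte peak. Fa2h, a sphingolipid hydroxylase, had 1 peak in the second oligodendrocyte library and 1 or 2 in each astrocyte library.

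Among genes of other cell types, an astrocyte site was found at 7 of 15 excitatory neuron genes, 5 of 17 inhibitory neuron genes, 7 of 13 microglial genes and 8 of 16 endothelial and mural genes. Among the highest-ranked were Neurod2, Slc17a7, Emx1 and Fezf2, then Pvalb, Gad1 and Sp9, then Aif1 and Csf1r, and then Pecam1, Cdh5 and Acta2, none with an oligodendrocyte peak. Cx3cr1, a microglial chemokine receptor, and Tagln, a smooth muscle protein, each had an oligodendrocyte site that astrocytes shared. At Cx3cr1 the site held the palindrome and had 105, 103 and 73 fragments against 24 and 25, and at Tagln 84, 65 and 69 against 27 and 32. The Tagln site lies in an intron of the neighbouring Pcsk7, and sites were not assigned to a single gene. Likewise, Slc17a7 and the housekeeping gene Rpl13a owed their rank to the same site.

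**Figure D5:**
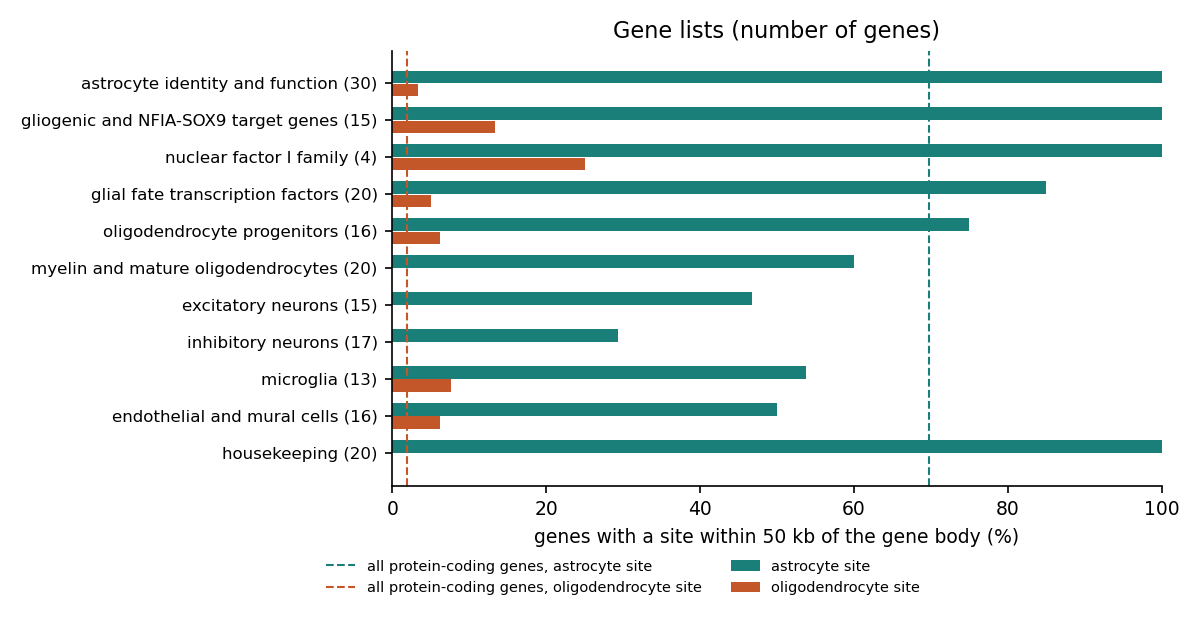
Percent of the genes of each list with an astrocyte or an oligodendrocyte NFIA site within 50 kb of the gene body, with the number of genes in parentheses and dashed lines for all protein-coding genes (69.7% and 1.91%). Astrocyte, gliogenic, nuclear factor I and housekeeping genes reach 100% for astrocyte sites, and neuron lists lie under 50%.

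NFIA sites of other cells and GR sites overlapped the shared set. An InN NFIA peak lay at 69 of the 177 shared astrocyte sites (39%) and at 5.38% of astrocyte sites with no oligodendrocyte peak, and an ExN NFIA peak at 29.4% and 7.85%. A GR site of NR astrocytes lay at 62.7% and 50.2%. The 177 sites were chosen as called in a second cell type, so the higher shares with further cell types are given as values only.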

How the data were processed

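NFIA CUT&RUN peaks were analysed from 6 libraries, with NFIA of InN and ExN and GR of astrocytes and oligodendrocytes as references. The authors trimmed reads (cutadapt), aligned them to mm10 (Bowtie2), removed duplicates (Picard), kept fragments up to 120 bp and called peaks per library with MACS2 against IgG. The deposited lists give the fold enrichment ratio at the summit, −log10 p and −log10 q. Every q in the lists used was under 0.01, the threshold in the study's legends, whereas its methods give 0.05. The lists hold no read counts, so library totals are unknown, and no differential count test was run. Fragments and local background were solved from fold and p (tolerance 0.001 in −log10 p) and tested on simulated data. Sites were merged peaks called in at least 2 of 3 libraries, overlap meant 1 bp, and genes and sequence came from GENCODE on GRCm38. Libraries were compared by two-sided exact permutation with Benjamini-Hochberg adjustment. Shares have Wilson 95% intervals, which cover counting error only. Python 3.11.15, NumPy 2.4.6, pandas 2.3.3, SciPy 1.17.1 and pysam 0.24.0 were used.

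Named sites were the 12 of highest mean fold percentile called in all 3 astrocyte and no oligodendrocyte libraries, in all 6, and in at least 2 oligodendrocyte and no astrocyte libraries. Named genes were those of each list with an oligodendrocyte site and the 4 with the highest-ranked astrocyte site. Sequences were those of the first 4 sites of each class, chromosome 18 left out. Exceptions are stated where they occur, and a few items that these rules select are not reported here. Samples, gene lists and rules were chosen with earlier results of these data known. Alternatives changed the q threshold, the libraries, the pairing by replicate number, the number of peaks, the windows and the overlap.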

Additional observations from a re-analysis of the deposited data

Results flagged for a closer look

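The single-arm NFI word TTGGCA was more frequent at oligodendrocyte than at astrocyte summits for NFIA and less frequent for GR, with oligodendrocytes minus astrocytes at 17.9 and -6.25 percentage points. For the full site the NFIA difference was 4.55. The GR difference of -0.0272 gives no direction, because the oligodendrocyte GR lists held the full site at 0 of 110 and 0 of 81 summits, with Wilson upper limits of 3.37% and 4.53%. The difference between the antibodies was not tested. The GR values rest on the oligodendrocyte GR lists with at least 50 peaks.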

How the results depend on the processing

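Of 84 alternatives 63 were classed as unchanged, 20 as moved and 1 as changed in sign, and the cause was not tested. For differences between libraries, unchanged meant only that the sign held, because no p here can pass 0.05. Such differences could still shift in size. For shares of sites and genes it meant within the Wilson interval of the main value, and for counts within 1.5 times. The promoter difference fell from 8.02 to -1.67 percentage points without oligodendrocyte replicate 3 and ranged up to 18.6 over left-out libraries. Leaving out each library gave log2 peak-number differences of 6.03 to 7.38, full-site differences of -5.81 to -3.84 and single-arm differences of -24.3 to -12.2. Once a library was left out, a site of that cell type had to be called in both remaining libraries. This gave 65 to 160 oligodendrocyte sites and 18621 to 20502 astrocyte sites. An astrocyte site lay at 89.6 to 95.4% of oligodendrocyte sites, and an oligodendrocyte site at 0.264 to 0.924% of astrocyte sites. Sites without an astrocyte peak numbered 3 to 13, and genes with an astrocyte site made up 65.6 to 67%. Sites called in all 3 libraries numbered 63 in oligodendrocytes, 0.336% of astrocyte sites were then shared, 2 sites lacked an astrocyte peak, and 64.2% of genes had an astrocyte site. Windows of 20 and 100 kb gave 60.3% and 76.9% of genes. Replicate numbers only name samples, so nothing shows that they pair. With labels permuted within replicate number (replicate block) the differences of 6.62, -4.55 and -17.9 had an exact p of 0.25, the smallest possible, and the promoter difference of 8.02 had 0.75. With 3 libraries a group no test here can pass 0.05, and depth is known only through the lowest background of each list.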

Other observations

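At 19 of the 180 sites with peaks in both cell types every oligodendrocyte value, scaled to the lowest background of its library, exceeded every astrocyte value. Only libraries with a peak at the site gave a value, so many of these sites lack a value in some libraries. Sites near Sulf2, Vipr2 and Igsf9b had a value in only 1 astrocyte library. The sites described below were chosen after their values were seen. An intronic site of Rab2a, a small GTPase of vesicle traffic, had 28, 25 and 28 fragments in oligodendrocytes and 17, 8 and 11 in astrocytes. An intronic site of Arid3b, a DNA-binding protein, had 40, 35 and 35 against 20, 21 and 19. An intronic site of Sdc3, the heparan sulphate proteoglycan syndecan-3, had 38 and 19 in oligodendrocyte replicates 1 and 2 against 9, 11 and 10. The groups did not overlap at any of the 3, and these values were not tested.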
